A study of Mus musculus with 15 samples.

Results

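Tumours that grew from Myc-infected cerebellar cells were set against GFP-positive cells sorted from the young cerebellum of the same engineered strain. The comparison holds 6 of the 15 arrays of the study, 3 Myc primary tumours and 3 samples of GFP-positive cells, chosen by the source names in the labels, and 17097 genes, each read through a probe set that maps to that gene alone. The study used 5 groups of 3 arrays to describe a mouse model of an aggressive human medulloblastoma subgroup.

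The Myc primary tumours arose in the brains of immunocompromised nude mice. Cerebellar cells of the genotype Cdkn2c-/-, Trp53-/-, Atoh1-GFP had been infected with Myc and placed in the host's cerebral cortex, a site outside the cerebellum. These hosts lack most T cells and keep myeloid cells, vessels and glia. Myc secondary tumours grew from cultured sphere cells of such tumours, and Shh tumours were spontaneous medulloblastomas of Cdkn2c-/-; Trp53 Fl/Fl; Nestin-Cre mice. The GFP-positive cells were sorted by flow cytometry from cerebella of Cdkn2c-/-, Trp53-/-, Atoh1-GFP mice at postnatal day 6, and the GFP-negative cells are the rest of that sort. The labels disagree here: the source names of both sorted populations say spontaneous tumour, and the design text, which was followed, says cerebella of that age. Loss of Cdkn2c and Trp53 and the Atoh1-GFP reporter are thus shared by the donor cells of the tumours and the sorted cells. Any host cells in the tumour samples would be of the nude mice instead. The labels give no sex, nor the age of the tumour-bearing animals. Tumour cells were dissociated and purified on a Percoll density gradient, and the sorted cells passed a fluorescence gate. Handling and host site therefore cannot be told apart from the difference between the groups. No label says whether samples of 1 group stem from different animals, so p-values measure only the spread between these samples.

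Granule neuron progenitors form the outer layer of the young cerebellum, express the transcription factor Atoh1 and divide in response to Sonic hedgehog, which acts through Patched, Smoothened and the Gli factors and induces Mycn. They then leave the cell cycle, extend axons and migrate inward as granule neurons. Myc, a relative of Mycn, binds DNA with Max at the E-box CACGTG and is known for raising genes of ribosome assembly, translation, nucleotide synthesis and glycolysis.

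Values are log2 signals after robust multi-array averaging (RMA), and a difference of 1 is a 2-fold change. Differences are Myc primary minus GFP-positive, given with the standard error of a limma fit over all 15 arrays. A gene is said to rise or fall where the adjusted p (Benjamini-Hochberg over 17097 genes) was below 0.05. A group mean under 4.77, which 95% of the 23 nonspecific control probe sets do not exceed, was read as background, and differences that reach down to it are set by the floor of the array. By this measure 4232 genes (24.8%) changed, of which 2476 (14.5%) rose and 1756 (10.3%) fell. At least 2-fold changes were seen for 2567 genes (15%), 1522 up and 1045 down. For 7894 genes (46.2%) the arrays of both groups lay fully apart, and 6703 genes lay below background in both groups. The share of changed genes that rose was 58.5%, but 36.4% when arrays were centred on their median gene, a scaling that moves the median of all genes to -0.24 (0.06 as deposited). Array correlations across genes were 0.970 to 0.974 within the Myc primary group and 0.995 within the GFP-positive group, and 0.920 to 0.929 between the groups. The sample titles are numbered in 3 blocks, with the Myc primary and Shh arrays in the first, GFP-negative 1 and 2 in the second and all other arrays, the GFP-positive ones among them, in the last. A term for the last block can be estimated only from GFP-negative 3 against GFP-negative 1 and 2, none of which is in the block of the Myc primary arrays, so it need not equal the step between the compared groups. With it 2872 genes changed (1284 up and 1588 down), 1500 of them in the same direction as here. This setting is called the run term below.

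The 15 largest rises and the 15 largest falls, among genes whose groups lay apart, were of varied known roles. Mt1, the metal-binding metallothionein, read 12.11, 12.46 and 12.23 in Myc primary tumours, against 5.19, 5.65 and 5.45 in GFP-positive cells, a rise of 6.84 ± 0.59 (adjusted p = 6.8e-06). Igfbp2, a secreted binding protein of insulin-like growth factors, read 11.37, 11.25 and 10.83 in the tumours, against 4.75, 5.51 and 5.61 in the sorted cells (5.86 ± 0.41, adjusted p = 1.4e-06). Both genes were near background in the GFP-positive cells and bright in every tumour. They were also bright in GFP-negative cells, where Mt1 read 11.07, 11.46 and 11.64 and Igfbp2 10.42, 10.5 and 9.71. Sulf2, an extracellular enzyme that trims heparan sulfate, rose by 5.33 ± 0.47, and Nefh, the heavy neurofilament subunit, by 5.24 ± 0.37. Umodl1, a membrane protein of the uromodulin-like kind, rose by 5.21 ± 0.42, and Ifitm3, an interferon-induced membrane protein, by 5.86 ± 0.26. In GFP-negative cells Sulf2 read 11.19, 10.96 and 10.55 and Ifitm3 7.99, 8.96 and 8.56. Nefh (3.3 to 3.65) and Umodl1 (4.12 to 4.55) lay below background there. Other large rises were of genes that stromal and immune cells are known for: Mgp, matrix Gla protein (6.33 ± 0.74), Rgs5, a pericyte gene (5.41 ± 0.66), Sparc, a matrix glycoprotein (5.30 ± 0.60), Apod, apolipoprotein D (5.25 ± 0.53), Col4a1, a basement membrane collagen (5.17 ± 0.52), and Lyz2, lysozyme of macrophages (5.14 ± 0.34). Of these, Mgp, Rgs5, Sparc, Apod and Col4a1 were highest in Myc primary 3, where marker lists of fibroblasts, endothelial cells and oligodendrocytes also stood highest; their part in these rises was not tested.

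At the other end, Cadps2, a vesicle release factor of granule cells, read 4.98, 3.58 and 6.15 in Myc primary tumours, against 11.42, 11.29 and 11.44 in GFP-positive cells (-6.48 ± 0.51, adjusted p = 3.2e-06). Sfrp1, a secreted Wnt modulator found in Shh-type medulloblastoma, read 5.42, 4.89 and 5.02 in the tumours, against 10.96, 11.10 and 10.81 in the sorted cells (-5.84 ± 0.25). Alcam, an adhesion molecule, fell by 5.02 ± 0.34, and Egfr, the epidermal growth factor receptor, by 4.72 ± 0.45. Ndst3, an enzyme of heparan sulfate synthesis, fell by 4.49 ± 0.30, Diras2, a small Ras-like GTPase, by 4.46 ± 0.64, and Nrxn3, a synaptic neurexin, by 4.39 ± 0.34. The remaining large falls are given with their gene groups. Of the 83 genes that changed by at least 4 on the log2 scale, 56 rose and 27 fell.

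**Figure D1:**
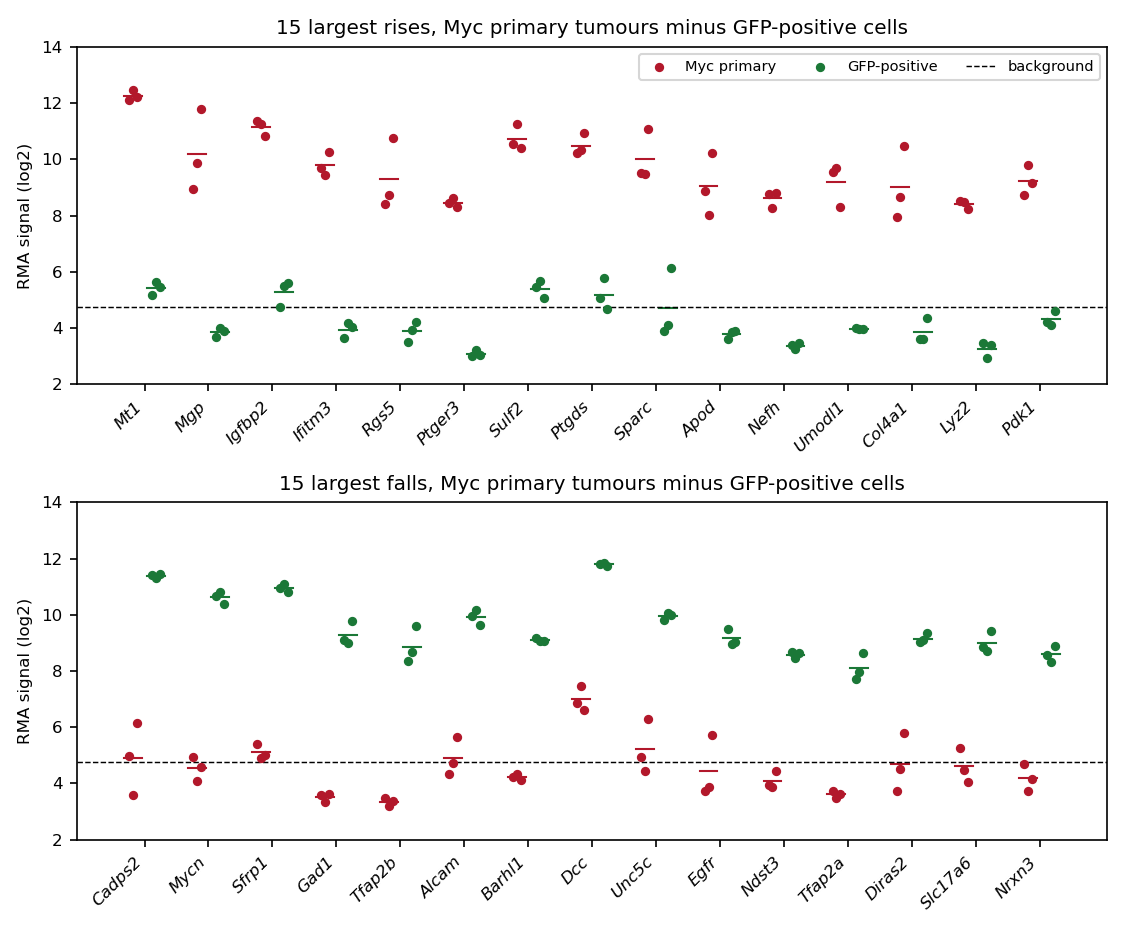
RMA signal (log2, vertical axis) of the 15 largest rises (top) and the 15 largest falls (bottom) on each array; points are arrays, short lines are means of 3 arrays, and the dashed line is the background level of 4.77. Each gene was chosen for groups that do not overlap, and among the rises Mgp, Rgs5, Sparc and Col4a1 have 1 tumour array, Myc primary 3, well above the other two.

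Mycn gave the most divided reading of the comparison, because its probe sets moved in opposite directions. The probe set used for the gene, 1417155_PM_at, read 4.94, 4.10 and 4.58 in Myc primary tumours, against 10.65, 10.80 and 10.40 in GFP-positive cells (-6.08 ± 0.20, adjusted p = 8.7e-09 over genes). A second one, 1425922_PM_a_at, read 5.35, 5.12 and 5.14 in the tumours, against 8.73, 8.97 and 8.29 in the sorted cells (-3.46 ± 0.21). The last one, 1425923_PM_at, read 13.40, 12.98 and 13.05 in the tumours, against 4.01, 4.30 and 4.27 in the sorted cells, a rise of 8.95 ± 0.15 (adjusted p = 1.5e-12 over probe sets). On this probe set the 3 Myc secondary tumours read 13.26, 12.97 and 12.93, and the other 6 arrays, from Shh tumours and GFP-negative cells, read between 3.94 and 4.39. So 2 probe sets were low and 1 was among the brightest signals in every Myc tumour of both kinds, and the split was seen in none of the other groups. With the mean of the 3 probe sets the call for Mycn ended. In all, 50 genes had probe sets called in both directions; those of Ramp2, a subunit of peptide hormone receptors, ran from -3.64 to 3.03 and those of Phf20l1, a chromatin reader, from -2.95 to 2.84. Where these probe sets lie relative to the introduced Myc sequence, or to any vector, is not given in the sources used here.

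Myc itself was read by 1 probe set, with 8.41, 5.21 and 9.0 in Myc primary tumours, against 7.37, 7.39 and 6.68 in GFP-positive cells. The groups overlap, Myc primary 2 being the lowest of the 6 arrays, and the difference of 0.39 ± 0.74 did not pass (adjusted p = 0.78). It was called without Myc primary 2 (1.56) and turned negative without Myc primary 1 (-0.04) or Myc primary 3 (-0.34). The other family member, Mycl, read 7.09, 7.04 and 7.10 in the tumours, against 8.27, 8.52 and 8.26 in the sorted cells, and fell by 1.28 ± 0.36 (adjusted p = 0.019), a call lost without GFP-positive 2. Of 17 measured genes of the Myc and Max network 3 rose (17.6%) and 4 fell (23.5%, Mycn by its used probe set among them). Of all genes 14.5% rose and 10.3% fell. The list median was 0.05, against 0.06 for all genes. Ruvbl1 and Ruvbl2, ATPases that bind Myc, rose by 1.48 ± 0.19 and 1.36 ± 0.27, and Mxd3, a partner of Max that opposes Myc, fell by 1.17 ± 0.25. The remaining calls were a rise of Huwe1, a ubiquitin ligase, which the mean of its probe sets turned to -0.41, and a fall of Mxd1, a relative of Mxd3; both were named after their values were seen. Adding the run term ended the calls of Ruvbl2, Huwe1 and Mxd1, and that of Huwe1 was also lost when any of 4 of the 6 arrays was left out.

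**Figure D2:**
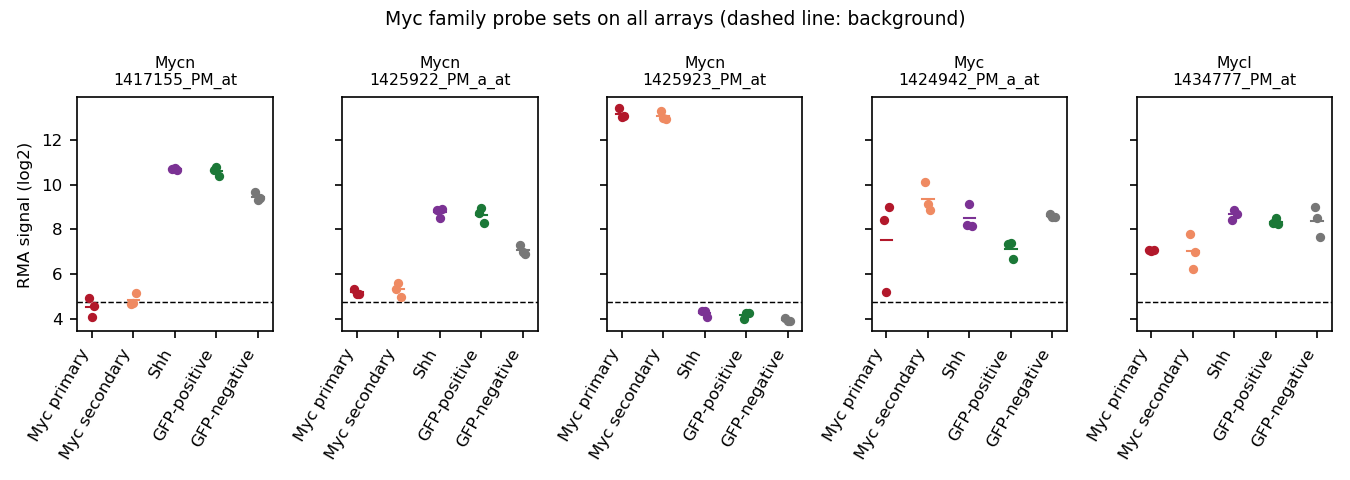
RMA signal (log2) of the 3 probe sets of Mycn and of the probe sets used for Myc and Mycl on all 15 arrays; points are arrays, short lines are group means, and the dashed line is background. The Mycn probe set 1425923_PM_at lies near 13 in both kinds of Myc tumour and near 4 in every other group, while the first lies near 4.5 in Myc primary tumours, against 10.6 in GFP-positive cells.

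Transcription factors that define granule neuron progenitors fell in the tumours. Atoh1, which specifies these cells and drives the reporter, read 4.49, 4.82 and 4.55 in Myc primary tumours, against 8.97, 9.29 and 8.51 in GFP-positive cells (-4.30 ± 0.52, adjusted p = 7.2e-05). It read 3.75, 3.96 and 4.55 in GFP-negative cells, so the sort followed the reporter's gene and the tumours stood at the level of the negative gate. Barhl1, a homeobox factor that acts after Atoh1, read 4.22, 4.33 and 4.14 in the tumours, against 9.17, 9.08 and 9.07 in the sorted cells (-4.88 ± 0.22). Of 24 measured factors of the list 15 fell (62.5%) and 2 rose (8.33%, median -1.20), where 10.3% of all genes fell and 14.5% rose. Those 15 were the ones whose groups lay apart with the tumours lower. Of all genes 46.2% had groups that lay apart, in either direction. Zic2, a zinc finger factor of progenitors, fell by 3.50 ± 0.34, Meis1, a homeobox factor of the lineage, by 2.74 ± 0.42, and Pax6, a paired-box factor of granule cells, by 2.74 ± 0.60. Several factors kept high signals: Neurod1, a driver of granule neuron differentiation, read 11.93, 11.66 and 11.95 in the tumours, against 13.35, 13.15 and 13.31 in the sorted cells (-1.43 ± 0.42, adjusted p = 0.025). Its call was lost when any of the 6 arrays was left out. En2, a hindbrain homeobox factor, likewise read 8.39, 8.29 and 8.40 in the tumours, against 9.81, 9.62 and 9.64 in the sorted cells. The rises were Olig3, a factor of the rhombic lip from which granule cells come (2.74 ± 0.72), and Lhx9, which lay below background in both groups; both were named after their values were seen. Under the run term 8 factors fell and 1 rose, and the calls of Pax6, Neurod1 and Olig3 ended; without Myc primary 2 that of Olig3 ended too, and that of Lhx9 ended with centring and without Myc primary 3 or GFP-positive 2. Against Shh tumours, 10 of the 24 factors were lower in Myc primary tumours and 2 higher, where 15.8% of all genes differed; Atoh1 was lower by 5.11 ± 0.52 and Barhl1 by 5.45 ± 0.22. Less RNA per cell and fewer cells of the lineage cannot be told apart in such bulk samples, here or below.

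Within the Hedgehog list Gli1, Gli2, Boc, Sufu, Gpr161 and Sfrp1 fell and Evc2 rose, while Smo and Ptch1 did not pass. Gli1, a transcription factor and readout of the pathway, read 3.45, 3.64 and 3.60 in Myc primary tumours, against 7.98, 8.21 and 7.66 in GFP-positive cells (-4.39 ± 0.27, adjusted p = 6e-07). Gli2, the main activator, fell by 2.51 ± 0.54 (a call that the run term ended), and the difference of Boc, a Hedgehog co-receptor, was -2.90 ± 0.26. Sufu, which holds Gli factors in check, fell by 1.38 ± 0.27. The receptor Ptch1 read 9.17, 9.26 and 9.56 in the tumours, against 10.68, 10.52 and 10.30 in the sorted cells. Its groups did not overlap, yet its difference of -1.17 ± 0.89 did not pass in the limma fit over all arrays (adjusted p = 0.41). That fit takes its spread from all groups, and the Shh arrays read 9.9, 7.03 and 4.56. In a fit on only the 6 compared arrays Ptch1 was called. Smo, the transducer Smoothened, differed by -0.18 ± 0.16 (adjusted p = 0.48). Of 19 measured genes 6 fell, among them Sfrp1, given above, and Gpr161, an inhibitory receptor of the cilium named after its value was seen, and 1 rose, Evc2, a ciliary protein that relays the signal (2.50 ± 0.23). The list median was -0.37, and 31.6% of its genes fell and 5.26% rose, where 10.3% of all genes fell and 14.5% rose. The primary cilium, on which the pathway runs, changed little: of 28 of its genes 3 fell and 0 rose (median -0.07), among them Kif3a, a motor subunit (-1.09), Ift57 (-1.23) and Tctn1 (-1.10), where 10.3% of all genes fell. The calls of Gpr161, Ift57 and Tctn1 were lost with the run term, and that of Gpr161 also without Myc primary 3, GFP-positive 1 or GFP-positive 2.

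Genes of granule neuron differentiation fell most widely of all lists examined, by median. Of 33 measured genes 22 fell (66.7%) and 1 rose (3.03%, median -1.46), where 10.3% of all genes fell and 14.5% rose. The run term left 15 falls and 0 rises. Unc5c, a netrin receptor of migrating granule cells, read 4.95, 4.44 and 6.31 in Myc primary tumours, against a mean of 9.96 ± 0.14 (SD, n = 3) in GFP-positive cells (-4.72 ± 0.55). Slc17a6, a vesicular glutamate transporter, read 5.26, 4.49 and 4.07 in the tumours, against 8.84, 8.71 and 9.44 in the sorted cells (-4.39 ± 0.54). Nrcam, an axonal adhesion molecule, fell by 3.63 ± 0.30, Fat2, a protocadherin of granule cells, by 2.74 ± 0.28. Cntn2, contactin of parallel fibres, changed by -2.38 ± 0.40, a call that the run term ended. Neuronal genes were reduced rather than lost in some cases: Rbfox3, the splicing factor NeuN, read 10.37, 10.06 and 9.86 in the tumours, against 11.54, 11.42 and 11.59 in the sorted cells (-1.42 ± 0.16). The rise was of Calb2, calretinin, named after its values were seen. Its groups overlap (8.04, 7.94 and 5.49 in the tumours, against 4.66, 5.29 and 5.58 in the sorted cells, 1.98 ± 0.56). Its call was lost on only the 6 arrays, without Myc primary 1 or 2 or GFP-positive 1, and with the run term.

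Migration and synapse genes also fell more often than they rose, where 10.3% of all genes fell and 14.5% rose. Of 37 genes of migration and axon guidance 12 fell (32.4%) and 3 rose (8.11%), and 22 did not pass (median -0.16). The list mean was 5.98, 6.02 and 6.52 in Myc primary 1, 2 and 3, against 6.48 to 6.54 in GFP-positive cells, so Myc primary 3 was not lower. Dcc, a netrin receptor, read 6.88, 7.47 and 6.63 in Myc primary tumours, against 11.80, 11.84 and 11.74 in GFP-positive cells (-4.81 ± 0.34). Robo2, a Slit receptor, fell by 2.83 ± 0.35 and Cxcl12, a chemokine of the meninges, by 3.77 ± 0.61. In contrast Nrp2, a receptor of semaphorins and vascular growth factors, read 9.08, 8.99 and 8.78 in the tumours, against 5.0, 4.12 and 4.45 in the sorted cells (4.43 ± 0.22, adjusted p = 1.1e-07). Its level was also 4.30 ± 0.22 above that of Shh tumours (adjusted p = 1.2e-07), so it was higher than in GFP-positive cells and in Shh tumours alike. Of 29 synapse and excitability genes 12 fell (41.4%) and 2 rose (6.9%, median -0.73). The vesicle calcium sensor Syt1 stood at -3.35 ± 0.54 and the glutamate receptor subunit Gria2 at -3.12 ± 0.37. The rises were Nefh, given above, and Stx1a, syntaxin 1A (0.95), named after its value was seen; the call of Stx1a was lost without any of 5 of the 6 arrays. Both lists had 7 falls with the run term, and without GFP-positive 3 the falls of the synapse list numbered 6.

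GABAergic genes made up a further share of the large falls. Gad1, which makes the transmitter GABA, read 3.60, 3.35 and 3.64 in Myc primary tumours, against 9.10, 8.98 and 9.77 in GFP-positive cells (-5.75 ± 0.30, adjusted p = 1.6e-07). Tfap2b and Tfap2a, AP-2 factors of developing cerebellar interneurons, fell by 5.52 ± 0.31 and 4.48 ± 0.28, and Lhx5, a homeobox factor of the Purkinje and interneuron lineages, by 4.01 ± 0.24. All 4 genes lay below background in the tumours. None of the 4 passed the test between Myc primary and Shh tumours (differences of -0.11, -0.09, -0.01 and 0.11, adjusted p between 0.82 and 0.99). They lay below background on the Shh arrays too (3.27 to 3.83), so that test cannot compare their levels. Of 13 measured Purkinje and GABAergic genes 7 fell (53.8%) and 1 rose (7.69%, median -0.89), where 10.3% of all genes fell and 14.5% rose. The rise was Foxp2 (1.54), named after its value was seen and lost with the run term. Some of these genes, Gad1 and Lhx5 among them, read high in the GFP-positive cells although they mark another lineage. Of the 13 genes 5 lay below background there, among them Calb1 (3.39 to 3.63), Pcp2 (3.57 to 3.73) and Pvalb (4.02 to 4.69). The mean of the 13 genes was 4.64 to 4.86 in the tumours, against 5.97 to 6.30 in the GFP-positive cells. In the GFP-negative cells it was 5.75 to 6.203. The purity of the sort is not given in the sources used here.

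**Figure D3:**
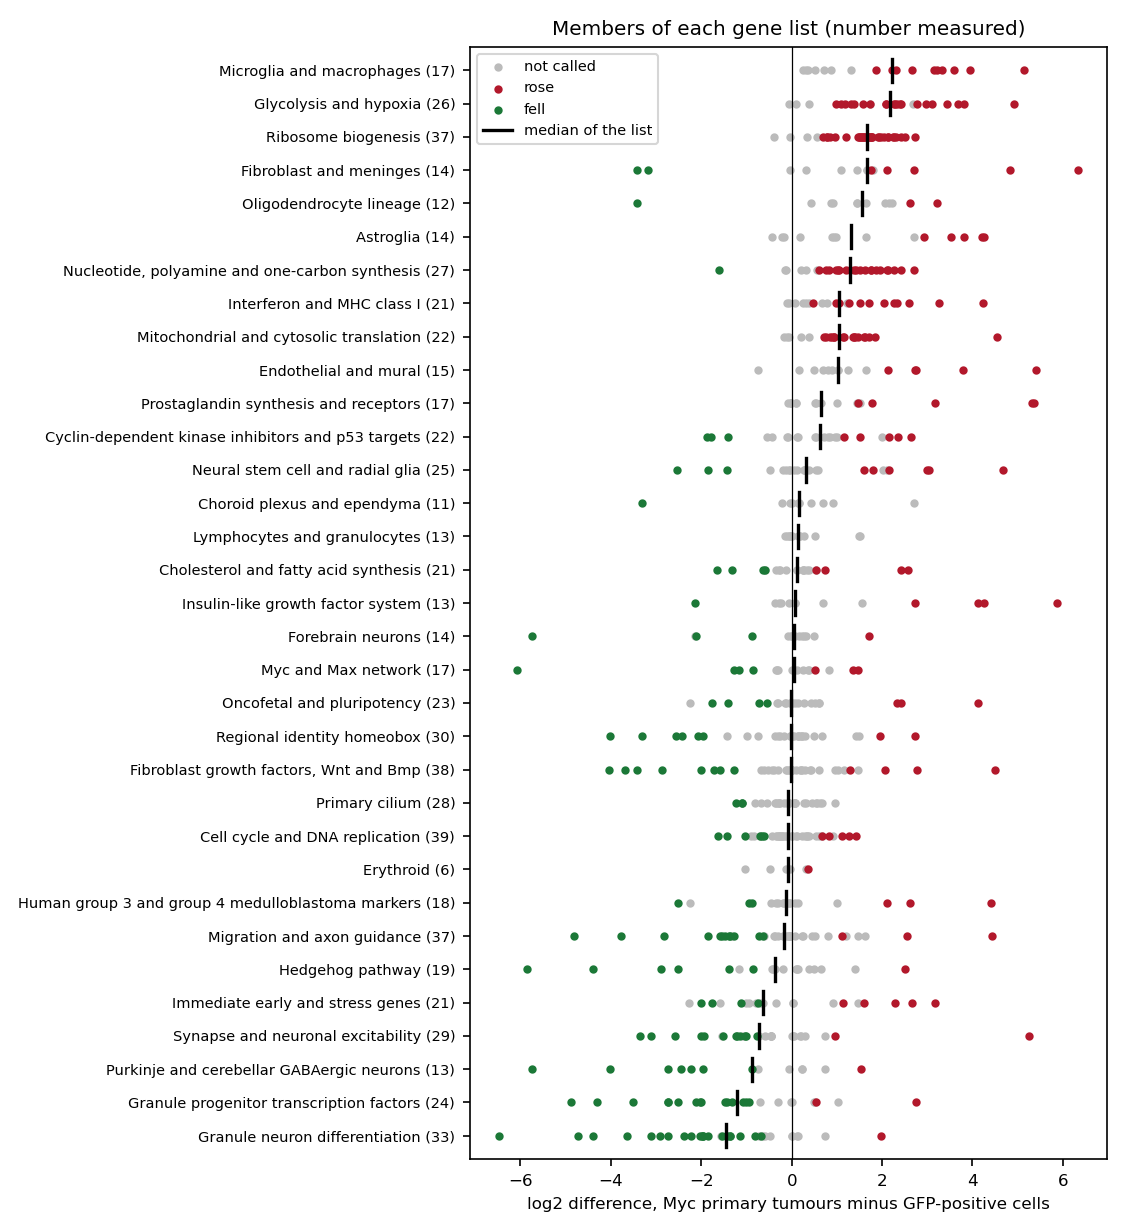
Log2 difference, Myc primary tumours minus GFP-positive cells (horizontal axis), of every measured member of the 33 gene lists, ordered by list median; red points rose, green points fell, grey points did not pass, and black bars are medians. The granule neuron differentiation list sits at the bottom (median -1.46) and the microglia, glycolysis and ribosome lists at the top (2.23, 2.17 and 1.67).

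The genes that Myc is known for raising were higher in the tumours across nearly whole lists. Of 37 genes of ribosome biogenesis 33 rose and 0 fell (median 1.67), where 14.5% of all genes rose. Nop56, a core protein of small nucleolar particles, read 11.96, 11.76 and 11.82 in Myc primary tumours, against 10.22, 10.47 and 10.26 in GFP-positive cells (1.53 ± 0.12, adjusted p = 2.9e-06). Fbl, fibrillarin, which methylates ribosomal RNA, averaged 12.02 ± 0.052 in the tumours and 10.83 ± 0.092 in the sorted cells (SD, n = 3 each; 1.19 ± 0.10). For both genes the arrays of a group lay close together and the groups well apart. The changes of the list ran from -0.38 to 2.74, the top value being Rrp12, a ribosome export factor whose call the run term ended, as it did that of Polr1b; 27 members rose with it. Nolc1, a nucleolar phosphoprotein, rose by 1.56 ± 0.15 and Polr1b, a subunit of RNA polymerase I, by 1.67 ± 0.23. Npm1, nucleophosmin, already read 12.07, 12.28 and 12.10 in the sorted cells and reached 12.84, 12.82 and 12.87 in the tumours (0.69 ± 0.12), a call that ended when arrays were centred on their median gene. The 4 members that did not pass were Ncl, Nop58, Ubtf and Rrn3; the probe set of Ncl, nucleolin, read only 5.29 to 5.87 over the 6 arrays. Ubtf, a factor of RNA polymerase I, stood at -0.38 and was called lower under 6 of the alternative settings. The 37 genes also set the tumour kinds apart, with 28 higher in Myc primary than in Shh tumours and 0 lower, where 15.8% of all genes differed.

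Synthesis of nucleotides, polyamines and one-carbon units followed, with 21 of 27 genes up and 1 down (median 1.29). Of all genes 14.5% rose and 10.3% fell, here and for the translation genes below. Srm, spermidine synthase, averaged 12.01 ± 0.006 in Myc primary tumours and 9.30 ± 0.095 in GFP-positive cells (SD, n = 3 each; 2.71 ± 0.21, adjusted p = 2.5e-06). Odc1, ornithine decarboxylase and a textbook target of Myc, read 9.90, 10.14 and 9.77 in the tumours, against 8.03, 8.21 and 8.31 in the sorted cells (1.75 ± 0.20). Cad, which starts pyrimidine synthesis, rose by 1.87 ± 0.27, Ppat, which starts purine synthesis, by 1.62 ± 0.16, Phgdh, which starts serine synthesis, by 2.27 ± 0.22, and Shmt2, the mitochondrial serine enzyme, by 2.11 ± 0.22. The fall was of Tk1, thymidine kinase (-1.60 ± 0.41), named after its value was seen. With the run term 10 of these genes rose, Cad not among them, and the call of Tk1 ended. Of 22 genes of mitochondrial and cytosolic translation 17 rose and 0 fell (median 1.04), or 9 with the run term. Eif4ebp1, a brake on cap-dependent translation, stood out from them, with 10.77, 11.13 and 10.09 in the tumours, against 5.82, 6.45 and 6.11 in the sorted cells (4.54 ± 0.31, adjusted p = 1.2e-06). Mrpl12, a mitochondrial ribosomal protein, rose by 1.83 ± 0.13 and Eif3b, an initiation factor subunit, by 1.71 ± 0.21.

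The stretch of 250 bases before the first listed start of each gene, in the RefSeq promoter table for GRCm38.p6, was searched for the E-box CACGTG, which reads the same on both strands. Of 17097 genes 13605 had such a stretch. The E-box lay in 7.58% of all of them, in 10.6% of those of genes that rose, in 6.63% of those of genes that fell and in 7.13% of the rest. By list it was found for 3 of 31 ribosome, 4 of 24 nucleotide, 4 of 17 translation and 4 of 24 glycolysis genes, and for 0 of 14 Hedgehog genes. The highest shares were in other lists, 5 of 18 immediate early and stress genes (27.8%) and 3 of 12 insulin-like growth factor genes (25%). Lists such as synapse and interferon genes (0 of 18 each) had none either, so the motif did not single out the lists that Myc is known for. The Gli motif GACCACCCA, searched on both strands, was found for 0.162% of all genes and for 0 of 14 Hedgehog genes. These are matches of letters, not measured binding. Stretches around the E-box of 5 risen genes, chosen for that motif after their values were seen, are printed to show its setting, with the E-box in capitals and read in the direction of the gene.
Nop2 (chr6:125131776-125131875, + strand): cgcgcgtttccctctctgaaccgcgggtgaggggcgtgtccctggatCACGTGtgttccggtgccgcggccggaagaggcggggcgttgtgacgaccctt
Imp4 (chr1:34439661-34439760, + strand): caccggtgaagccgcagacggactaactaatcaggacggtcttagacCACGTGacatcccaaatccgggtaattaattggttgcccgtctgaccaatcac
Paics (chr5:76951052-76951151, + strand): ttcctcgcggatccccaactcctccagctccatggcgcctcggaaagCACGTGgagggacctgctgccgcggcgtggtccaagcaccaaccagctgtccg
Ldha (chr7:46845612-46845711, + strand): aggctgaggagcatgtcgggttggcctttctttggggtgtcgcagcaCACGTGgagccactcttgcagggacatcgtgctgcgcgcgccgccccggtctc
Slc16a1 (chr3:104638417-104638516, + strand): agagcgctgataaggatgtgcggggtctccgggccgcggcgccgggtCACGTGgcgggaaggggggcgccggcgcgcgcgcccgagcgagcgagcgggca
Their changes were of different size. Nop2, a ribosomal RNA methyltransferase, read 9.58, 9.71 and 9.28 in Myc primary tumours, against 7.0, 7.09 and 6.98 in GFP-positive cells, and rose by 2.50 ± 0.23. Imp4, which helps to process ribosomal RNA, rose by 1.57 ± 0.15, Paics, an enzyme of purine synthesis, by 0.60 ± 0.12 (lost with the run term and when arrays were centred), Ldha, lactate dehydrogenase, by 2.09 ± 0.21, and Slc16a1, a lactate transporter, by 1.74 ± 0.15.

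Glycolysis and hypoxia genes rose together, and 1 tumour stood highest. Of 26 genes 21 rose (80.8%) and 0 fell (median 2.17), where 14.5% of all genes rose and 10.3% fell. Compared with Shh tumours 16 were higher and 0 lower, where 15.8% of all genes differed. Pdk1, a kinase that keeps pyruvate out of mitochondria, read 8.74, 9.79 and 9.18 in Myc primary tumours, against 4.22, 4.12 and 4.62 in GFP-positive cells (4.92 ± 0.38, adjusted p = 2.9e-06). Ldha read 12.54, 12.84 and 12.63 in the tumours, against 10.45, 10.77 and 10.53 in the sorted cells. Slc2a1, the glucose transporter Glut1, rose by 3.10 ± 0.48, Aldoa, aldolase, by 2.43 ± 0.30, and Hk2, hexokinase, by 1.37 ± 0.29. Gapdh, a glycolytic enzyme often used as a control, differed by 0.10 ± 0.12 (adjusted p = 0.6). Myc primary 2 was the highest tumour for 24 of the 26 genes, with a list mean of 10.01, against 8.88 and 9.15 in Myc primary 1 and 3 and 7.19 to 7.29 in GFP-positive cells. The gap was wide for targets of low oxygen: Adm, adrenomedullin, read 4.44, 10.13 and 5.40 in Myc primary 1, 2 and 3 (2.69 ± 1.08, adjusted p = 0.093), and Vegfa, the vascular growth factor, 6.78, 9.81 and 6.63, against 5.17, 4.76 and 4.98 in the sorted cells (2.77 ± 0.70, adjusted p = 0.011). Without Myc primary 2 the list median was 1.69. With the run term 10 genes of the list rose, and the calls of Slc2a1, Hk2 and Vegfa ended.

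Genes of the cell cycle were called in shares near those of all genes. Of 39 measured genes 5 rose (12.8%) and 6 fell (15.4%), where 14.5% of all genes rose and 10.3% fell (median -0.08). Mki67, a marker of dividing cells, read 10.83, 10.56 and 10.75 in Myc primary tumours, against 11.76, 11.88 and 11.58 in GFP-positive cells (-1.03 ± 0.21, adjusted p = 0.0032). Ccnd2, the D-type cyclin of granule progenitors, fell by 1.43 ± 0.26, and Rb1, the retinoblastoma protein that cyclins act on, by 1.64 ± 0.27. On the other side Ccne1, cyclin E1, rose by 1.12 ± 0.22, Ccnd3, another D-type cyclin, by 1.42 ± 0.32, Mybl2, a transcription factor of dividing cells, by 1.27 ± 0.25, and Mcm2, a subunit of the replicative helicase, by 0.82 ± 0.24. The call of Mcm2 was lost without any of 5 of the 6 arrays, and the run term, which left 1 rise, ended those of Ccnd2, Ccne1, Ccnd3 and Mybl2. Cdt1, which loads that helicase, was the fifth rise (0.67), lost when arrays were centred.

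Among inhibitors of cyclin-dependent kinases, the deleted Cdkn2c read 3.70, 3.63 and 3.59 in Myc primary tumours, against 3.52, 3.48 and 3.54 in GFP-positive cells, below background in both, as also on the other 9 arrays (3.31 to 4.12). Whether its probe set lies in the deleted part is not given, and Trp53 was not analysed here. Cdkn1b, the inhibitor p27, read 10.09, 10.15 and 9.93 in the tumours, against 11.66, 11.34 and 11.39 in the sorted cells (-1.41 ± 0.15, adjusted p = 3.6e-05). Cdkn2d, of the same family as Cdkn2c, fell by 1.78 ± 0.25. Cdkn2a, which encodes the p16 and Arf tumour suppressors, read 7.36, 4.34 and 7.92 in the tumours, against 3.54, 4.17 and 3.99 in the sorted cells, and rose by 2.64 ± 0.74 (adjusted p = 0.019). Myc primary 2 stayed below background for Cdkn2a, and the call ended in a fit on only the 6 arrays and without Myc primary 1 or 3 or GFP-positive 1 or 3. Of 22 genes of these inhibitors and of p53 targets 5 rose (22.7%) and 3 fell (13.6%, median 0.62), where 14.5% of all genes rose and 10.3% fell. Perp, a p53 target of cell junctions, rose by 2.16, Phlda3 by 2.36, Aen by 1.51 and Zmat3 by 1.15, and Trp53inp1 fell by 1.87. By the labels Trp53 is deleted in the donor cells of the tumours and in the sorted cells, but not in the nude hosts. With the run term no member rose (0 of 22), and the call of Trp53inp1 ended; that of Zmat3 was lost without Myc primary 2, GFP-positive 2 or GFP-positive 3.

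The growth factors Fgf15 and Igf2 and the binding protein Igfbp3 rose, while Mdk, Ptn and Irs1 fell. Fgf15, a fibroblast growth factor of the embryonic brain, read 8.85, 8.61 and 8.46 in Myc primary tumours, against 4.31, 3.93 and 4.19 in GFP-positive cells (4.50 ± 0.35, adjusted p = 2.9e-06), and stood 4.48 ± 0.35 above Shh tumours. Igf2, an insulin-like growth factor, read 8.79, 11.10 and 10.59 in the tumours, against 5.77, 5.97 and 6.36 in the sorted cells (4.13 ± 0.70). Of 13 genes of the insulin-like growth factor system 4 rose (30.8%) and 1 fell (7.69%, median 0.07). The binding protein Igfbp3 was up by 4.26 ± 0.31 and the signalling adaptor Irs1 stood at -2.14 ± 0.42. The neural growth factors midkine and pleiotrophin went the other way: Mdk read 5.58, 5.83 and 6.04 in the tumours, against 9.69, 9.97 and 9.91 in the sorted cells (-4.04 ± 0.68), and Ptn fell by 3.68 ± 0.60. Of 38 genes of fibroblast growth factors, Wnt and Bmp, which include Mdk and Ptn, 4 rose (10.5%) and 8 fell (21.1%, median -0.01). Of all genes 14.5% rose and 10.3% fell. The calls of Igf2, Irs1 and Ptn did not pass with the run term.

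Prostaglandin genes were among the top rises. Ptger3, a receptor of prostaglandin E2, read 8.44, 8.64 and 8.31 in Myc primary tumours, against 3.01, 3.23 and 3.04 in GFP-positive cells (5.37 ± 0.65, adjusted p = 7.1e-05), while its dimmer probe set stayed below background in both. Ptgds, prostaglandin D synthase and a gene also of meninges and oligodendrocytes, read 10.23, 10.33 and 10.93 in the tumours, against 5.09, 5.78 and 4.67 in the sorted cells (5.32 ± 0.53). Ptgs2, the inducible cyclooxygenase, read 5.60, 7.37 and 7.35 in the tumours, against 3.58, 3.55 and 3.67 in the sorted cells (3.18 ± 0.56). Of 17 genes of synthesis and receptors 5 rose (29.4%, where 14.5% of all genes rose) and 0 fell (median 0.64). The other rises were Pla2g7 (1.77) and Ptges2 (1.47), the last of them named after its value was seen. With the run term 3 genes rose, the call of Ptgs2 ended and Ptges2 turned to -0.43; the call of Ptges2 was also lost without Myc primary 3 or GFP-positive 3. Ptger3 stood 5.34 ± 0.65 above Shh tumours and Ptgds 4.51 ± 0.53.

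Of the lists of stem cells, of regional identity and of human medulloblastoma groups, the last was called in shares near those of all genes (14.5% rose and 10.3% fell). Cd44, a hyaluronan receptor of progenitor and tumour cells, read 8.09, 9.57 and 8.78 in Myc primary tumours, against 4.18, 4.15 and 4.12 in GFP-positive cells (4.66 ± 0.41), and Prom1, the surface protein CD133, rose by 1.79 ± 0.33. Sox9, a factor of stem cells and glia, fell by 1.86 ± 0.25. Of 25 stem cell and radial glia genes 6 rose (24%) and 3 fell (12%; median 0.31), or 3 and 3 without GFP-positive 2 and 1 and 1 with the run term. Otx2, a homeobox factor of progenitors that is known to be high in human group 3 tumours, read 4.01, 7.25 and 5.08 in the tumours, against 8.63, 8.93 and 8.71 in the sorted cells (-3.31 ± 0.63). Among 30 regional homeobox genes 6 fell (20%) and 2 rose (6.67%), and Irx5, an Iroquois factor, rose by 2.73 ± 0.41. Of 18 measured marker genes of human groups 3 and 4, 3 rose and 3 fell (16.7% each; median -0.13). Npr3, the natriuretic peptide clearance receptor and a group 3 marker, read 8.22, 7.96 and 8.12 in the tumours, against 3.64, 3.60 and 3.81 in the sorted cells (4.42 ± 0.61), and was also higher than in Shh tumours (adjusted p = 0.0095). Gabra5, a GABA receptor subunit, gained 2.12 ± 0.58, with 6.72, 3.50 and 6.25 in the tumours, a call lost on only the 6 arrays and without Myc primary 1 or 3 or GFP-positive 3. Eomes, a factor of unipolar brush cells and a group 4 marker, fell by 2.51 ± 0.61. Prom1, Gabra5 and Eomes were not called with the run term.

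Markers of cells outside the granule lineage were read in both groups, and myeloid genes were the clearest difference. Of 17 microglia and macrophage genes 10 rose (58.8%) and 0 fell (median 2.23), where 14.5% of all genes rose and 10.3% fell. Their mean level was 5.99 to 6.25 in Myc primary tumours, against 3.86 to 4.21 in GFP-positive cells. In the GFP-positive cells 16 of the 17 lay below background. Adding the run term left 6 rises and 1 fall. C1qb, a complement component made by microglia, read 7.83, 7.37 and 7.74 in the tumours, against 3.72, 3.48 and 3.91 in the sorted cells (3.94 ± 0.34, adjusted p = 6.3e-06). Lyz2 read 8.52, 8.50 and 8.24 in the tumours, against 3.49, 2.94 and 3.39 in the sorted cells. Among receptors that define microglia, Cx3cr1 read 4.89, 4.03 and 4.59 in the tumours, against 4.07, 3.87 and 4.48 in the sorted cells. Csf1r read 5.31, 4.95 and 5.20 in the tumours, against 4.01, 4.52 and 4.29 in the sorted cells. The groups overlap for Cx3cr1 and lie apart for Csf1r, and neither difference passed. Between Myc primary and Shh tumours limma called 0 of these 17 genes (0 at an unadjusted p below 0.05), where 15.8% of all genes differed. Of 13 lymphocyte and granulocyte genes it called 0 between Myc primary tumours and GFP-positive cells (2 at an unadjusted p below 0.05), and 10 of the 13 lay below background in both groups.

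Vessel, fibroblast, astroglial and myelin genes differed widely from tumour to tumour. Of all genes 14.5% rose and 10.3% fell. Of 12 oligodendrocyte genes 2 rose (16.7%) and 1 fell (8.33%), and all 12 were highest in Myc primary 3. Its list median lay 3.99 above the GFP-positive mean, against 0.60 and 0.16 in Myc primary 1 and 2. Mbp, myelin basic protein, read 8.43, 6.12 and 11.30 in the tumours, against 5.40, 5.07 and 5.70 in the sorted cells (3.22 ± 0.88, adjusted p = 0.017), a call lost on only the 6 arrays and without GFP-positive 2. The fall was of Pdgfra, the receptor of oligodendrocyte precursors and fibroblasts (-3.42 ± 0.45). Of 15 endothelial and mural genes 5 rose (33.3%), and 14 were highest in Myc primary 3. Of 14 fibroblast and meningeal genes 5 rose (35.7%) and 2 fell (14.3%), and 12 were highest in Myc primary 3. Col3a1, a fibrillar collagen, read 7.77, 8.74 and 11.29 in the tumours, against 4.25, 4.43 and 4.64 in the sorted cells. Of 14 astroglial genes 5 rose (35.7%), and 9 were highest in Myc primary 3. Gfap read 7.45, 3.42 and 7.20 and Aqp4, the water channel of astrocyte endfeet, 8.59, 3.46 and 8.68 in Myc primary 1, 2 and 3, so that Myc primary 2 lay at the level of the sorted cells (3.09 to 3.47 over both genes). The call of Aqp4 was lost without any of 5 of the 6 arrays. Without Myc primary 3 the median of the oligodendrocyte list was 0.38, in place of 1.55, and that of the fibroblast list 0.80, in place of 1.67. Ttr, the transthyretin of choroid plexus, read 9.55, 9.53 and 3.79 in the tumours, against 4.10, 4.10 and 6.54 in the sorted cells, and did not pass. With the run term the rises numbered 0, 1, 2 and 1 in the oligodendrocyte, endothelial, fibroblast and astroglial lists. How much such cells add to other differences was not tested.

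**Figure D4:**
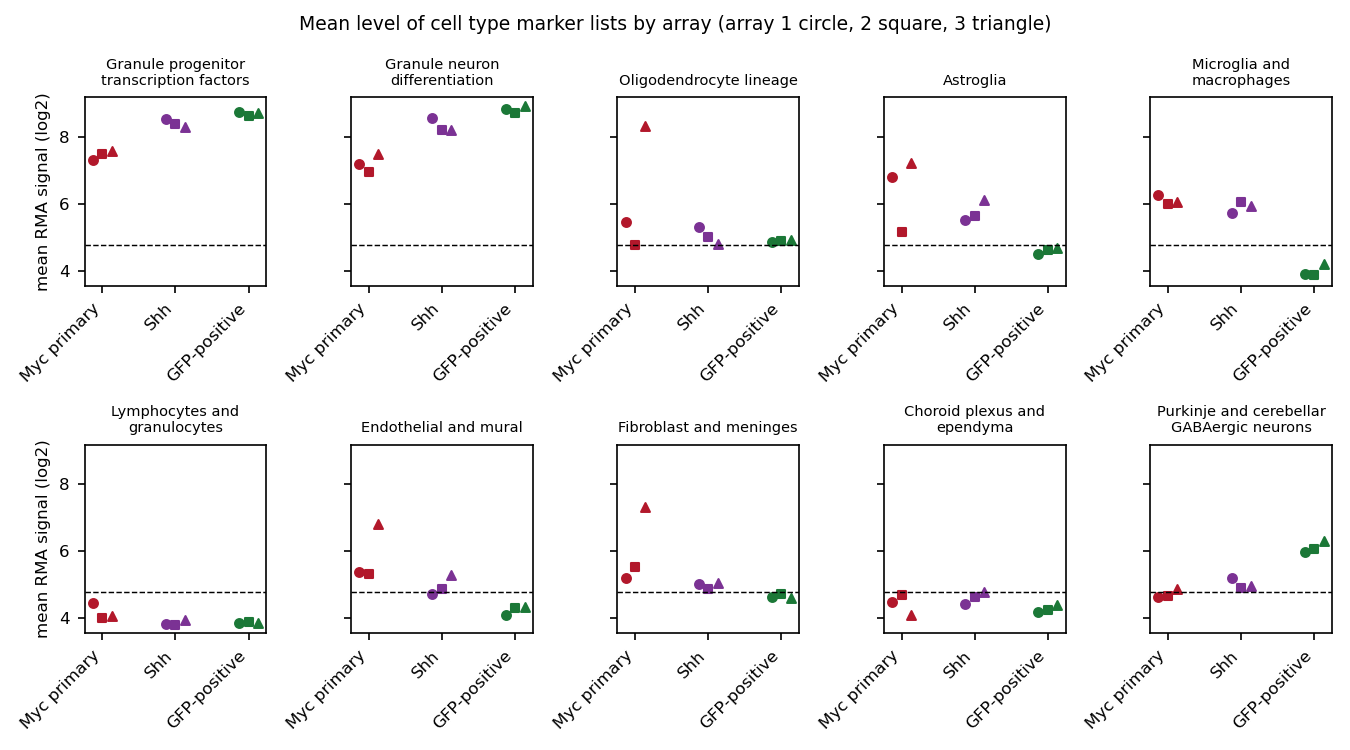
Mean RMA signal (log2, vertical axis) of 10 lists of cell type markers on each array of Myc primary tumours, Shh tumours and GFP-positive cells; circles, squares and triangles are arrays 1, 2 and 3, and the dashed line is background. Myc primary 3 stands highest for oligodendrocyte (8.32), endothelial (6.81) and fibroblast (7.31) lists, and microglial genes lie near 6 in both kinds of tumour and near 4 in GFP-positive cells.

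Interferon and MHC class I genes were called only as rises, and stress genes in both directions. Of 21 interferon and MHC class I genes 12 rose and 0 fell (median 1.05; 7 rose when arrays were centred or without GFP-positive 2, and 3 with the run term), and 15 were below background in GFP-positive cells. Cxcl10, an interferon-induced chemokine, read 6.96, 9.47 and 8.62 in Myc primary tumours, against 4.07, 4.12 and 4.14 in the sorted cells (4.24 ± 0.57), and H2-K1, an MHC class I chain, rose by 2.58 ± 0.40. Against Shh tumours limma called 0 of the 21 interferon and MHC class I genes higher and 4 lower, where 15.8% of all genes differed. Of 21 immediate early and stress genes 5 rose (23.8%) and 4 fell (19%, median -0.63), where 14.5% of all genes rose and 10.3% fell. With the run term 0 rose and 0 fell, and when 1 array was left out 1 to 4 rose and 1 to 9 fell. Of the 21 genes 14 were highest in Myc primary 3. Hspa1b, a heat shock protein, gained 3.17 ± 0.85, a call lost without Myc primary 3, GFP-positive 1 or GFP-positive 2, and Egr1, an immediate early factor, read 9.40, 6.95 and 11.70 in the tumours, against 11.90, 11.59 and 11.35 in the sorted cells, and did not pass.

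The tumours varied far more among themselves than the sorted samples did. Of genes above background, 561 of 10000 had a standard deviation over 1 in Myc primary tumours, against 12 of 9479 in GFP-positive cells, and the median standard deviation was 0.27 in the tumours, against 0.13 in the sorted cells. Myc primary 3 read at least 1 above both other tumours for 557 genes, Myc primary 2 for 271 and Myc primary 1 for 97. The fit uses 1 spread per gene, shared by the 5 groups.

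By map position, genes of chromosomes 14 and 16 were more often lower in the tumours, a grouping chosen with earlier results of these data known. On chromosome 14, 18.2% of 604 genes fell and 5.46% rose, and on chromosome 16, 18.8% of 568 fell and 5.28% rose. On the other 18 chromosomes 5.45% to 13.2% fell and 8.54% to 18.2% rose. The tumours did not share these shifts evenly. Over genes above background in both groups, the median difference from the GFP-positive mean on chromosome 14 was -0.88, -0.00 and -0.55 in Myc primary 1, 2 and 3. On chromosome 16 it was -0.74, -0.63 and -0.14. For the other chromosomes the 3 tumours lay between -0.21 and 0.36, and the GFP-positive arrays, which make up the mean they are set against, between -0.04 and 0.04 on all chromosomes. Copy number was not measured.

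**Figure D5:**
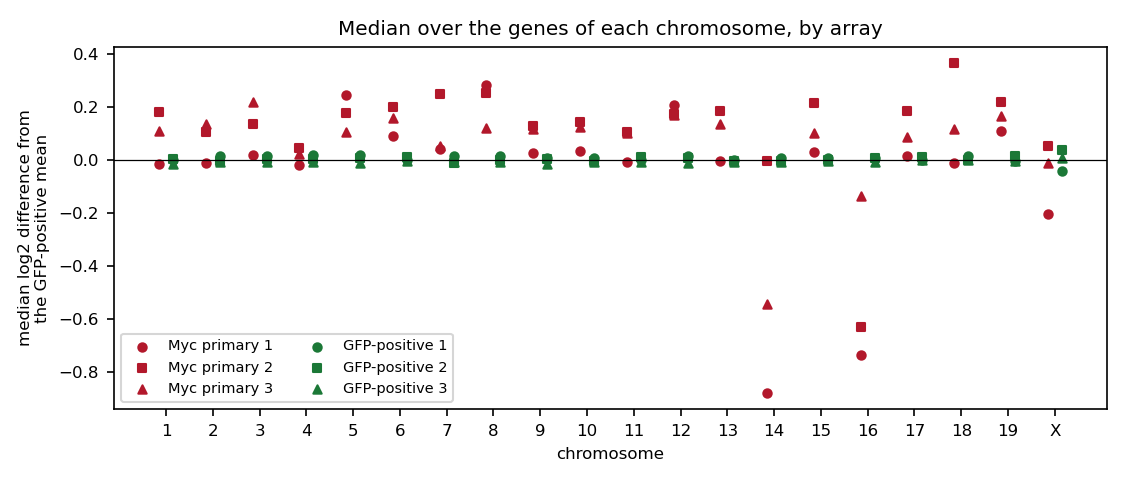
Median log2 difference from the GFP-positive mean (vertical axis) over the genes of each chromosome that lie above background in both groups, for 3 Myc primary tumours (red, left) and 3 samples of GFP-positive cells (green, right). Chromosome 14 is low in Myc primary 1 and 3 (-0.88 and -0.55) but not in Myc primary 2, and chromosome 16 is low in Myc primary 1 and 2 (-0.74 and -0.63).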

How the data were processed

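RNA of 15 samples was hybridised to Affymetrix mouse arrays, and the deposited log2 values were made by the authors with RMA in Partek 6.5, per the submitters' processing notes. All 45141 probe sets of the deposited table were read. Of these 104 were controls, 15588 had no gene in the platform annotation and 551 had several genes; the remaining 28898 named 1 gene each, and for 28689 the symbol was updated through its gene ID in RefSeq (GRCm38.p6). Where several probe sets read a gene (7180 genes), the brightest by its mean over the 15 arrays was taken. Array medians lay between 4.64 and 4.89, and the number of arrays limits the precision.

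A one-way limma 3.58.1 fit (R 4.3.3) over 5 groups of 3 arrays, with lmFit and eBayes, gave differences, standard errors and p-values, adjusted over 17097 genes by the Benjamini-Hochberg method and called below 0.05. It had 10 residual and 2.54 prior degrees of freedom. The fit was tested on simulated data. The same fit gave Myc primary minus Shh. Tables and figures were made with Python 3.11.15, pandas 2.3.3, numpy 2.4.6 and matplotlib 3.10.9.

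Gene lists (33, with 796 genes, 698 of them measured and 18 in more than 1 list) were drawn up with earlier results of these data known, as were the comparison and its members. Genes were named by rule from the 15 largest rises and falls, from the first 4 and the 4 smallest adjusted p-values of each list, and from genes whose probe sets were called in both directions; the rule did not pick these, which were named after their values were seen, as were those so marked in the text: Adm, Aldoa, Ccnd3, Ccne1, Cxcl12, Dlk1, Eif3b, En2, Fat2, Gapdh, Mcm2, Meis1, Neurod1, Nop58, Phlda3, Polr1b, Ptn, Rrn3, Rrp12, Sufu, Trp53inp1, Ubtf, Vegfa and Zmat3. Promoter sequences are RefSeq's, and 13605 of the genes matched.

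The alternatives were the mean of probe sets, every probe set, a filter on dim genes, cyclic loess, centring, only the 6 arrays, a trended and robust variance, array weights, each array left out, and a covariate for the last block of title numbers (the run term).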

Additional observations from a re-analysis of the deposited data

How the results depend on the processing

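Of 158 named genes, 143 of which were called, 2035 of 2212 comparisons with an alternative kept direction and side of the threshold, 137 lost the call, 23 gained it and 17 changed sign. The count of changed genes was 4262 with the mean of probe sets, 4261 of 14988 genes with the 2109 dim ones left out, 4609 with cyclic loess, 4319 with centring, 5191 on only the 6 arrays, 4207 with a trended and robust variance, 5774 with array weights and 3112 to 3800 when 1 array was left out. Tested one by one, 6883 probe sets changed (3306 fell, 4159 by at least 2-fold), and 4166 changed between Myc primary and Shh tumours; more features were tested there. With centring 1574 genes rose and 2745 fell, and with cyclic loess 51.4% of the changed genes rose. The run term left 1284 rises, shared 1500 calls (35.4%), and ended the calls of 51 named genes; it rests on GFP-negative 3 against GFP-negative 1 and 2, and the cause was not tested. It turned Csf1r to -0.20, Elovl6 to -0.27, Mcm2 to -0.23, Ptges2 to -0.43, Rrn3 to -0.29, Stx1a to -0.062, Zmat3 to -0.072 and Ncl to 0.47. Centring turned Cdkn2c to -0.17 and Gapdh to -0.19, and the mean of probe sets turned Huwe1 to -0.41 and Phf20l1 to -0.99, by bringing in probe sets of the other direction. Leaving out 1 array moved Myc between -0.34 and 1.56 and Ncl between -0.20 and 0.13. No paired analysis was possible because the labels carry no replicate numbers. Signals near background limit the size of a fall, and 6703 genes lay below it in both groups.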

Other observations

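Lipid synthesis genes were called in both directions, and most were not called. Of 21 measured genes of cholesterol and fatty acid synthesis 4 rose and 4 fell (19% each, median 0.13), and 13 did not pass. Of all genes 14.5% rose and 10.3% fell. The rises were Scd1, stearoyl-CoA desaturase, at 7.87 ± 0.38 in Myc primary tumours and 5.30 ± 0.31 in GFP-positive cells (SD, n = 3 each), Tmem97, a sterol-regulated membrane protein, Elovl6, a fatty acid elongase, and Acaca, acetyl-CoA carboxylase. The falls were Hmgcs1, Fdft1 and Nsdhl, enzymes of the sterol branch, and Insig1, a sterol sensor. Elovl6, Insig1, Fdft1 and Nsdhl were named after their values were seen. The calls of Elovl6, Insig1 and Nsdhl were each lost without any of 5 of the 6 arrays, that of Acaca was lost with the mean of probe sets, centring and the run term and that of Scd1 with the run term, and those of Tmem97, Hmgcs1 and Fdft1 were kept under all alternatives that gave a value per gene. Of 23 oncofetal and pluripotency genes 3 rose (13%) and 4 fell (17.4%). Among the rises was Dlk1, an imprinted membrane protein, which read 7.22, 7.88 and 6.86 in the tumours, against 5.08, 4.95 and 4.91 in the sorted cells. Its call was lost without any of 5 of the 6 arrays. Of 14 forebrain neuron genes 1 rose (7.14%) and 3 fell (21.4%), with Gad1, given above, among the falls. As 8 of the 14 lay below background in both groups, the count says little about cortical neurons in the samples. Of 11 choroid plexus and ependymal genes 0 rose and 1, Otx2, fell (9.09%), and of 6 erythroid genes 1 rose (16.7%), below background in both groups. In limma 2 of the 11 choroid plexus and ependymal genes had an unadjusted p below 0.05, Otx2 among them.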
